A study of Mus musculus with 6 samples.

Results

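AMP-activated protein kinase (AMPK) and its activating kinase LKB1 are described here at the mRNA level in AML12 cells, an immortalised mouse hepatocyte line. The members are the 8 genes whose symbols in the deposited table are Prkaa1, Prkaa2, Prkab1, Prkab2, Prkag1, Prkag2, Stk11 and Cab39, out of 26359 genes and loci. The rule is a list of gene symbols and uses no measured value, but the list was drawn up with earlier results of these data known. Of the 8 members, 7 passed the filter on low counts and were among the 13197 genes tested, and Prkaa2 did not pass it.

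The study concerns TM9SF1, a membrane protein of the transmembrane 9 family, and its role in autophagy when liver blood flow is cut and restored. Its RNA-seq experiment has 6 libraries, 3 labelled sh-NC and 3 labelled sh-1. Both groups are AML12 cells with no treatment, time or genotype given in the labels, and sh-1 is read here as a hairpin against Tm9sf1 and sh-NC as its control. The titles of the sh-1 libraries say Sh-2 and those of the sh-NC libraries name only the line, and no label says that the control cells carried a hairpin. Neither the number of clones behind the stably transfected cells nor separate cultures are given, so each p-value reflects the scatter among 3 and 3 libraries, possibly of technical origin.

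Tm9sf1 itself measured 47.2, 53.4 and 45.8 CPM (counts scaled by library size and composition) in sh-NC and 35.3, 36.8 and 36.5 CPM in sh-1, so the targeted mRNA was lower by a modest amount (log2 fold change -0.43 ± 0.10 SE, adjusted p = 0.00186 in edgeR). Depth was 36997329 to 51334798 counts per library. Differences were very widespread, with 65.5% of all tested genes past an edgeR adjusted p of 0.05, 33.3% higher and 32.2% lower in sh-1, and they followed the GC content of the transcripts. Fold changes below are therefore also given after the trend of each library along GC content and transcript length was removed, which takes out any true change shared by genes of like composition. After that correction 67.6% of the genes passed, 32.9% higher and 34.7% lower, and Tm9sf1 was at -0.09 (edgeR adjusted p = 0.36). Hepatocyte markers were uneven. The epithelial keratin gene Krt18 averaged 3380 FPKM in sh-NC (fragments per kilobase, scaled by depth), and Hnf4a, a hepatocyte transcription factor gene, 37.0 FPKM, whereas Alb, the albumin gene, averaged 2.04 FPKM. Of the 9 hepatocyte markers, 6 passed as lower and 2 as higher, and their summed level, mostly the keratins Krt8 and Krt18, was 5640 to 6530 FPKM in sh-NC and 3760 to 4590 FPKM in sh-1. The 2 higher were Hnf4a (log2 fold change 1.17, and 1.46 after the correction) and Apob (2.53, then 1.53). The largest fall was in Ttr (-3.65, then -4.08), so the sum does not stand for each marker. After the correction Krt8 (log2 fold change -0.02) and Trf (-0.03) lost their calls, which left 4 lower and 2 higher. Marker sums of other cell types stayed at or under 4.02 FPKM, apart from biliary and progenitor genes at 730 to 810 FPKM in both groups. That sum was mostly Krt19, with means of 576 FPKM in sh-NC and 660 FPKM in sh-1. Within it Krt7 and Sox9 were called lower before and after the correction (log2 fold changes -0.83 and -1.62, then -0.61 and -1.66). Afp was called higher only before the correction (0.62, then 0.19), and Krt19 only after it (0.13, then 0.60). The sum of 4 leukocyte markers was 3.48 to 4.02 FPKM in sh-NC and 0.606 to 1.06 FPKM in sh-1, mostly from Cd68, which was called lower. Csf1r was called higher, with means of 0.0665 FPKM in sh-NC and 0.212 FPKM in sh-1, while Ptprc and Adgre1, the defining markers of leukocytes and macrophages, were at or near 0 (means of 0.00793 to 0.0239 FPKM). The part of these markers in the results below was not tested. In bulk RNA, fewer cells of a type and less RNA per cell cannot be told apart.

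AMPK is a heterotrimer of a catalytic α subunit, a scaffolding β subunit that binds glycogen and a γ subunit that senses AMP and ADP. It is switched on when LKB1, held active by the pseudokinase STRAD and the scaffold MO25, phosphorylates the activation loop of the α subunit. In liver it is known for restraining lipid and glucose synthesis and for promoting autophagy through the kinase ULK1.

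Among the 7 tested members, Stk11 (LKB1), Prkab2 (the β2 subunit) and Cab39 (MO25α) were lower in sh-1 and Prkaa1 (the α1 subunit) was higher, though lower after the correction, while Prkab1, Prkag1 and Prkag2 did not pass. These 4 calls of 7 stand beside 65.5% of all genes tested. The groups did not overlap in 5 of the 7, beside 70.3% of all genes. The median log2 fold change was -0.04 over the 7 members and 0.00 over all genes tested (-0.37 and -0.02 after the correction). With the composition trend removed, 2 members were higher (Prkab1 and Prkag1) and 4 lower, beside 67.6% of all genes called. Stk11, Prkab2 and Cab39 were called lower in both fits, whereas Prkaa1 was called higher in one and lower in the other. The authors' deposited table holds a DESeq2 comparison of A with B, 2 groups whose samples it does not name. The sign of its log2 fold change was opposite to that of sh-1 over sh-NC in 10.8% of the 7985 genes called before the correction that have a value there. Among the 7704 such genes called after the correction, its sign was opposite to the corrected fold change in 32.5%. In the authors' deposited table Stk11 was at -0.84 and Prkaa1 at 0.77 (adjusted p = 0.00296 and 0.00016 by DESeq2), on the same side as in the uncorrected fit. After the correction Stk11 stayed on that side (-0.44) and Prkaa1 did not (-0.37). Prkab2 was at 0.66, Cab39 at 0.44 and Prkag1 at -0.12 in the authors' deposited table, on the other side, without passing (adjusted p = 0.292, 0.40 and 0.726 by DESeq2).

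Before the correction, LKB1 mRNA showed the largest difference of the tested members. Stk11 (ENSMUSG00000003068) is a protein coding gene on chromosome 10 from 80115803 to 80130682 (GRCm38, plus strand). The gene measured 126, 140 and 145 CPM in sh-NC, against 79.5, 62.6 and 56.8 CPM in sh-1. Every sh-1 library was below every sh-NC library. The mean was 137 ± 10 CPM in sh-NC, against 66.3 ± 11.8 CPM in sh-1 (SD, n = 3 each), a ratio of 0.484 (log2 fold change -1.05 ± 0.12 SE, adjusted p = 7.53e-06 in edgeR). The transcript has 59.7% GC, and at that composition and length the fitted trend of all genes was itself -0.61 between the groups. With the trend removed Stk11 stood at -0.44 (edgeR adjusted p = 0.000426). Its exons overlap by 232 bases with those of Cbarp on the opposite strand, which had 392 to 482 counts in the sh-NC libraries and 97 to 130 in sh-1, against 5207 to 6995 and 2181 to 3317 for Stk11. Whether the counting used strand is not given.

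LKB1 needs MO25 for full activity, and the mRNAs of the MO25 paralogs were called in opposite directions. Cab39 (MO25α, ENSMUSG00000036707), on chromosome 1 from 85793441 to 85851576, measured 108, 93.4 and 85.2 CPM in sh-NC, against 75.1, 79.1 and 84.6 CPM in sh-1. The highest sh-1 library lay just under the lowest sh-NC library, and Cab39 fell (log2 fold change -0.26 ± 0.10 SE, adjusted p = 0.0342 in edgeR). This small difference lost its call when sh-NC replicate 1 or 2 or sh-1 replicate 1 or 2 was left out (-0.16, -0.28, -0.22 and -0.25, edgeR adjusted p = 0.133, 0.0656, 0.0995 and 0.10). After the correction it was larger, at -0.82 (edgeR adjusted p = 1.87e-07). Its paralog Cab39l (MO25β, ENSMUSG00000021981), outside the 8 members and on chromosome 14 from 59440972 to 59585764, measured 9.60, 8.89 and 7.21 CPM in sh-NC, against 21.0, 28.7 and 28.3 CPM in sh-1. All sh-1 libraries were above all sh-NC libraries, and Cab39l rose 3.03-fold in mean CPM (log2 fold change 1.60 ± 0.16 SE, adjusted p = 3.14e-06 in edgeR; 0.86 after the correction, edgeR adjusted p = 4.89e-05). Exons of Cab39l and Cdadc1 on the opposite strand share 261 bases, and Cdadc1 had 302 to 465 counts in the 6 libraries. The authors' deposited table gave Cab39l a log2 fold change of 0.87 (adjusted p = 0.083 by DESeq2).

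The 250 bases upstream of an annotated start of Stk11, Cab39 and Cab39l are given, from RefSeq on GRCm38.p6, because Stk11 had the largest uncorrected fold change of the tested members and the MO25 paralogs were called in opposite directions. RefSeq lists another start of Cab39l, with chr14:59478701-59478950 upstream, and the data do not tell which is used. They lie at chr10:80115545-80115794, chr1:85793191-85793440 and chr14:59440713-59440962, all on the plus strand. Capitals mark matches on either strand to the GC box, which reads GGGCGG, to the CCAAT box, and to the core letters of NRF1 sites, which read TGCGCA.
Stk11: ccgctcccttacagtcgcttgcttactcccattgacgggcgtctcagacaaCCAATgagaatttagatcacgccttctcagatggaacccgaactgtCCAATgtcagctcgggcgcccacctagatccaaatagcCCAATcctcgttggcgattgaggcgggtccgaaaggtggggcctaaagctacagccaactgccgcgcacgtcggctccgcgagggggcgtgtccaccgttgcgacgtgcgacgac
Cab39: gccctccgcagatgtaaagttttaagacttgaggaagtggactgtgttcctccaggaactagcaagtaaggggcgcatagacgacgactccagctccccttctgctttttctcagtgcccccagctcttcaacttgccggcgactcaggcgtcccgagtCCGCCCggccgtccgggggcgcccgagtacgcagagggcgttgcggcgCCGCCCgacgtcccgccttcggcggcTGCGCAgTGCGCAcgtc
Cab39l: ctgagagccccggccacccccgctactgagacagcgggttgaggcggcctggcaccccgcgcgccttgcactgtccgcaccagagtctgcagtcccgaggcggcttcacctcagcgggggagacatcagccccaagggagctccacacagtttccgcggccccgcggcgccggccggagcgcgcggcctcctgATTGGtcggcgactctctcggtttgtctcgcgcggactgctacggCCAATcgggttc
The Stk11 stretch held 3 CCAAT boxes and the printed Cab39l stretch 2 (the other Cab39l stretch held 0), a motif found in 33.8% of 32851 RefSeq upstream regions of this length. The Cab39 stretch held 2 GC boxes (found in 32.7% of the regions) and 2 TGCGCA (6.43%). None of the 3, nor the other Cab39l stretch, held CACGTG, the E-box within the lysosomal CLEAR element (6.02%), or the cAMP response element TGACGTCA (1.55%). No marked motif overlapped another kind. The 3 stretches held 24, 27 and 29 CpG pairs, compared with a median of 6 over all regions and 1 in the other Cab39l stretch, which has 46.0% GC. A match of letters is not a site, and its absence says nothing of the factor.

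STRAD, the pseudokinase that holds LKB1 in its active form, is encoded by Strada and Stradb, which are partners outside the 8 members. Strada measured 18.8, 17.5 and 16.5 CPM in sh-NC, against 27.7, 25.9 and 26.1 CPM in sh-1, without overlap (log2 fold change 0.59 ± 0.11 SE, adjusted p = 0.000465 in edgeR). That rise turned to -0.39 after the correction (edgeR adjusted p = 0.0111), with a fitted trend of 1.0 at its 40.4% GC. Strada shares 158 bases of exon with Ccdc47 on the same strand, which had 1705 to 2491 counts in the sh-NC libraries and 3463 to 3971 in sh-1, so its counts are uncertain. Stradb measured 11.9, 12.5 and 12.6 CPM in sh-NC, against 15.5, 15.0 and 14.7 CPM in sh-1 and did not pass (0.29 ± 0.13 SE, adjusted p = 0.0671 in edgeR; 0.06 after the correction).

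**Figure D1:**
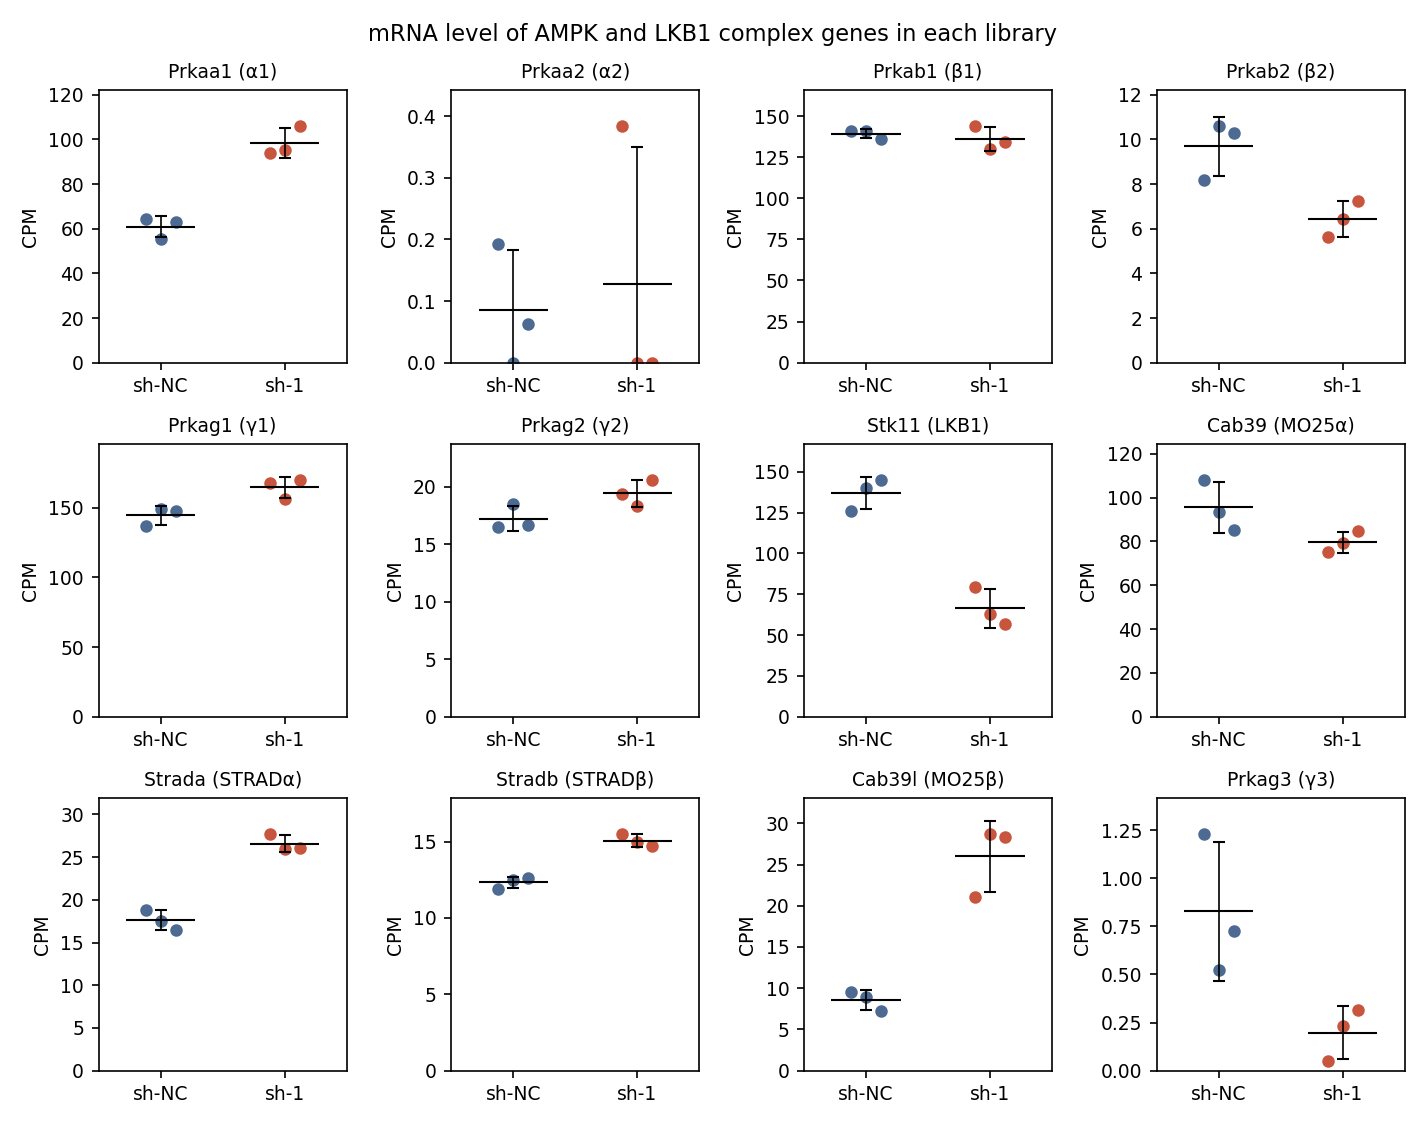
Level of each gene in CPM (linear axis from 0, its own scale per panel) in the 3 sh-NC and 3 sh-1 libraries. Points are libraries, lines are means and bars are SD; Stk11 lies at 56.8 to 79.5 CPM in sh-1 and 126 to 145 CPM in sh-NC, and Cab39l at 21.0 to 28.7 and 7.21 to 9.60 CPM.

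The catalytic α subunit was almost entirely α1. Prkaa1 (ENSMUSG00000050697), on chromosome 15 from 5143861 to 5181899, measured 64.3, 55.5 and 62.8 CPM in sh-NC, against 93.8, 95.3 and 106 CPM in sh-1. The groups did not overlap, and the mean of 60.9 ± 4.72 CPM stood against 98.3 ± 6.50 CPM (SD, n = 3 each; log2 fold change 0.69 ± 0.09 SE, adjusted p = 3.01e-05 in edgeR). Its transcript is GC-poor (40.2%), and the fitted trend at that point was 1.06, and Prkaa1 was at -0.37 once the trend was removed (edgeR adjusted p = 0.00143). Prkaa2 (α2, ENSMUSG00000028518), the isoform known from skeletal muscle and heart as well as hepatocytes, had 8, 0 and 3 counts in the sh-NC libraries and 16, 0 and 0 counts in sh-1. In the libraries at 0, up to 0.076 CPM in sh-NC replicate 2 and 0.0733 and 0.0811 CPM in sh-1 replicates 2 and 3 remain possible (3 counts of the total, counting error only). Prkaa2 made up 0 to 0.226% of the α FPKM in any library, so a difference in α2 was not detectable at this depth.

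The β subunits carry the carbohydrate-binding module and tether α to γ. Prkab1 (β1, ENSMUSG00000029513), on chromosome 5 from 116013586 to 116024508, measured 141, 141 and 136 CPM in sh-NC, against 144, 130 and 134 CPM in sh-1, with overlapping groups (log2 fold change -0.04 ± 0.08 SE, adjusted p = 0.70 in edgeR). Against the trend of transcripts with its 55.0% GC (-0.39) it stood at 0.35 after the correction (edgeR adjusted p = 0.000356). Prkab2 (β2, ENSMUSG00000038205), on chromosome 3 from 97658193 to 97673812, was much scarcer, with 8.17, 10.6 and 10.3 CPM in sh-NC, against 5.61, 6.44 and 7.22 CPM in sh-1. The groups did not overlap and Prkab2 fell (0.663 of the sh-NC mean, log2 fold change -0.59 ± 0.18 SE, adjusted p = 0.0119 in edgeR; -1.0 after the correction, edgeR adjusted p = 0.000282).

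The γ subunits bind AMP, ADP and ATP. Prkag1 (γ1, ENSMUSG00000067713), on chromosome 15 from 98812797 to 98831521, measured 137, 149 and 148 CPM in sh-NC, against 168, 156 and 170 CPM in sh-1. The groups did not overlap, but the difference was small and just missed the threshold (log2 fold change 0.19 ± 0.08 SE, adjusted p = 0.0516 in edgeR), which it passed without sh-1 replicate 2 (0.23, edgeR adjusted p = 0.0489) and after the correction (0.43, edgeR adjusted p = 3.71e-05). Prkag2 (γ2, ENSMUSG00000028944), the isoform with long amino-terminal variants known from heart, lies on chromosome 5 from 24862744 to 25100642. It measured 16.5, 18.5 and 16.7 CPM in sh-NC, against 19.4, 18.3 and 20.6 CPM in sh-1, with overlap (0.17 ± 0.12 SE, adjusted p = 0.23 in edgeR; 0.25 after the correction, adjusted p = 0.0526). Exons of Prkag1 and Prkag2 overlap antisense genes that were not analysed here. Prkag3 (γ3), the skeletal muscle isoform and not a member, had 51, 20 and 35 counts in the sh-NC libraries and 2, 10 and 12 counts in sh-1 (log2 fold change -2.06 ± 0.67 SE, adjusted p = 0.0164 in edgeR; -1.75 after the correction). Leaving out sh-NC replicate 1 (-1.66, adjusted p = 0.0883 in edgeR) or sh-1 replicate 1 (-1.59, adjusted p = 0.06 in edgeR) ended that call. The muscle markers Acta1, Myh1 and Ckm together reached 0.606 to 1.18 FPKM in sh-NC and 0.296 to 0.941 FPKM in sh-1, and Acta1, the one of the 3 that could be tested, did not pass.

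**Figure D2:**
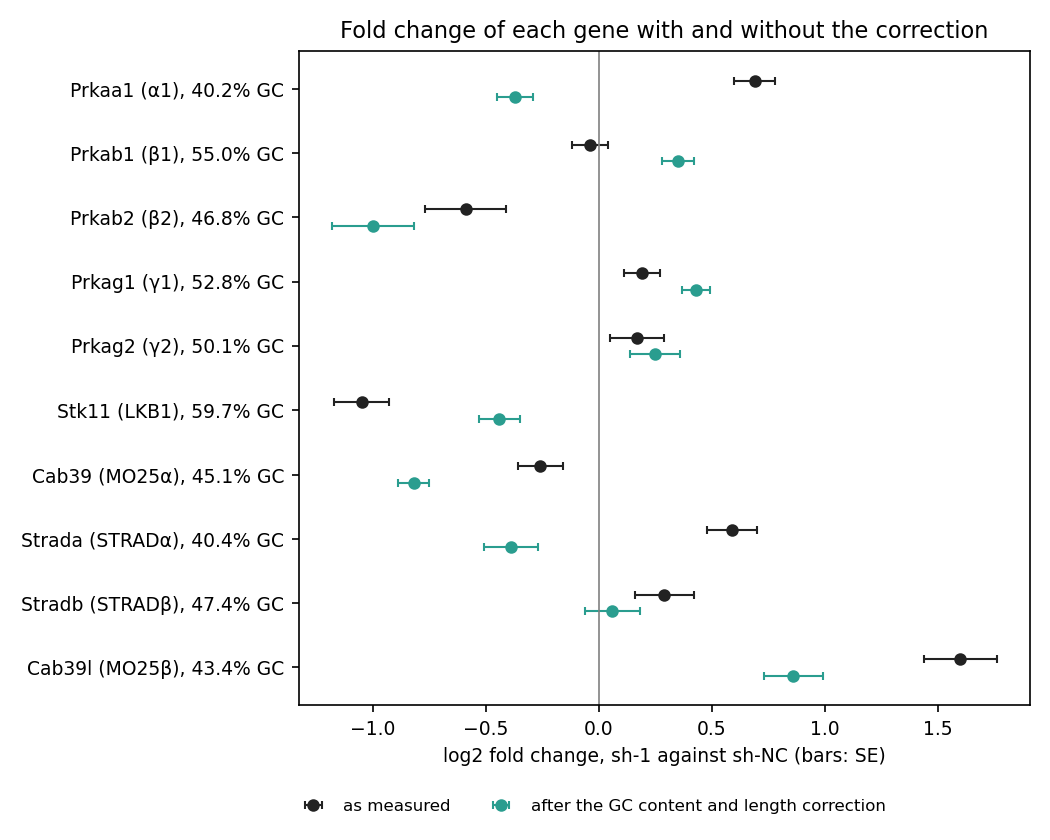
Log2 fold change of sh-1 against sh-NC (x axis, bars are SE) for 10 genes of AMPK and the LKB1 complex, as measured (black) and after the GC and length correction (green), with the GC content of the longest coding transcript beside each name. Stk11, Prkab2 and Cab39 lie left of 0 and Cab39l right of 0 in both, whereas Prkaa1 moves from 0.69 to -0.37 and Strada from 0.59 to -0.39.

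Per transcript length, α1, β1 and γ1 were the most abundant isoforms of their subunits in both groups. In sh-NC the order of mean levels was Prkag1 (83.2 ± 1.68 FPKM), Prkab1 (65.7 ± 3.50 FPKM), Stk11 (47.0 ± 5.55 FPKM), Cab39 (24.0 ± 3.76 FPKM), Prkaa1 (12.3 ± 1.20 FPKM), Prkag2 (7.53 ± 0.549 FPKM), Prkab2 (1.81 ± 0.199 FPKM) and Prkaa2, with no overlap between neighbours. In sh-1 Prkag1 (98.6 ± 4.07 FPKM) and Prkab1 (66.4 ± 3.11 FPKM) stayed first and second. Stk11 (23.6 ± 2.67 FPKM), Prkaa1 (20.9 ± 1.67 FPKM) and Cab39 (20.7 ± 1.53 FPKM) followed, and among these the neighbours in the order overlapped. Of the summed α, β and γ levels, α was the lowest in both groups, at 12.4 ± 1.21 FPKM in sh-NC and 20.9 ± 1.66 FPKM in sh-1. The ratio of summed β to summed α FPKM was 5.49 ± 0.564 in sh-NC and 3.25 ± 0.326 in sh-1, without overlap (exact permutation p = 0.10, n = 3 each), and the order of the groups was reversed after the correction (3.36 ± 0.373 and 5.34 ± 0.438).

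Isoform shares were tested with an exact two-sided permutation test over the 3 and 3 libraries, which cannot give a p below 0.10. The largest shift was in MO25. Cab39l made up 9.88, 10.5 and 9.46% of the MO25 FPKM in sh-NC and 25.8, 31.1 and 29.6% in sh-1, a difference in means of 18.9 percentage points with no overlap (exact permutation p = 0.10, adjusted p = 0.25 over 5 shares). The Prkab2 share of the β FPKM was 2.26, 2.87 and 2.96% in sh-NC and 1.52, 1.98 and 2.11% in sh-1, also without overlap (exact permutation p = 0.10, adjusted p = 0.25), and the difference of -0.822 percentage points was -2.13 after the correction. The Prkag2 share of the γ FPKM was 8.26 ± 0.457% and 8.19 ± 0.214% (SD, n = 3 each; exact permutation p = 0.90). The Stradb share of the STRAD FPKM was 34.9 ± 2.99% and 31.6 ± 2.21% (n = 3 each; exact permutation p = 0.20), with a difference of -3.33 percentage points that was reversed to 8.58 after the correction. The Prkaa2 share of the α FPKM had p = 1.00 by the same exact test. Summed over isoforms, MO25 was 26.7 ± 4.20 FPKM in sh-NC and 29.2 ± 3.00 FPKM in sh-1, with overlapping groups. LKB1 exceeded STRAD 3.66 ± 0.555-fold in sh-NC and 1.26 ± 0.167-fold in sh-1 (log2 difference -1.54, exact permutation p = 0.10, n = 3 each), a gap that shrank to -0.19 after the correction. The corrected ratios still did not overlap (2.27 ± 0.0791 in sh-NC and 1.99 ± 0.0659 in sh-1, exact permutation p = 0.10). The ratio of LKB1 to MO25 was 1.80 ± 0.386 in sh-NC and 0.822 ± 0.183 in sh-1 (log2 difference -1.13, exact permutation p = 0.10, n = 3 each), and after the correction the groups overlapped (0.08, exact permutation p = 0.60).

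**Figure D3:**
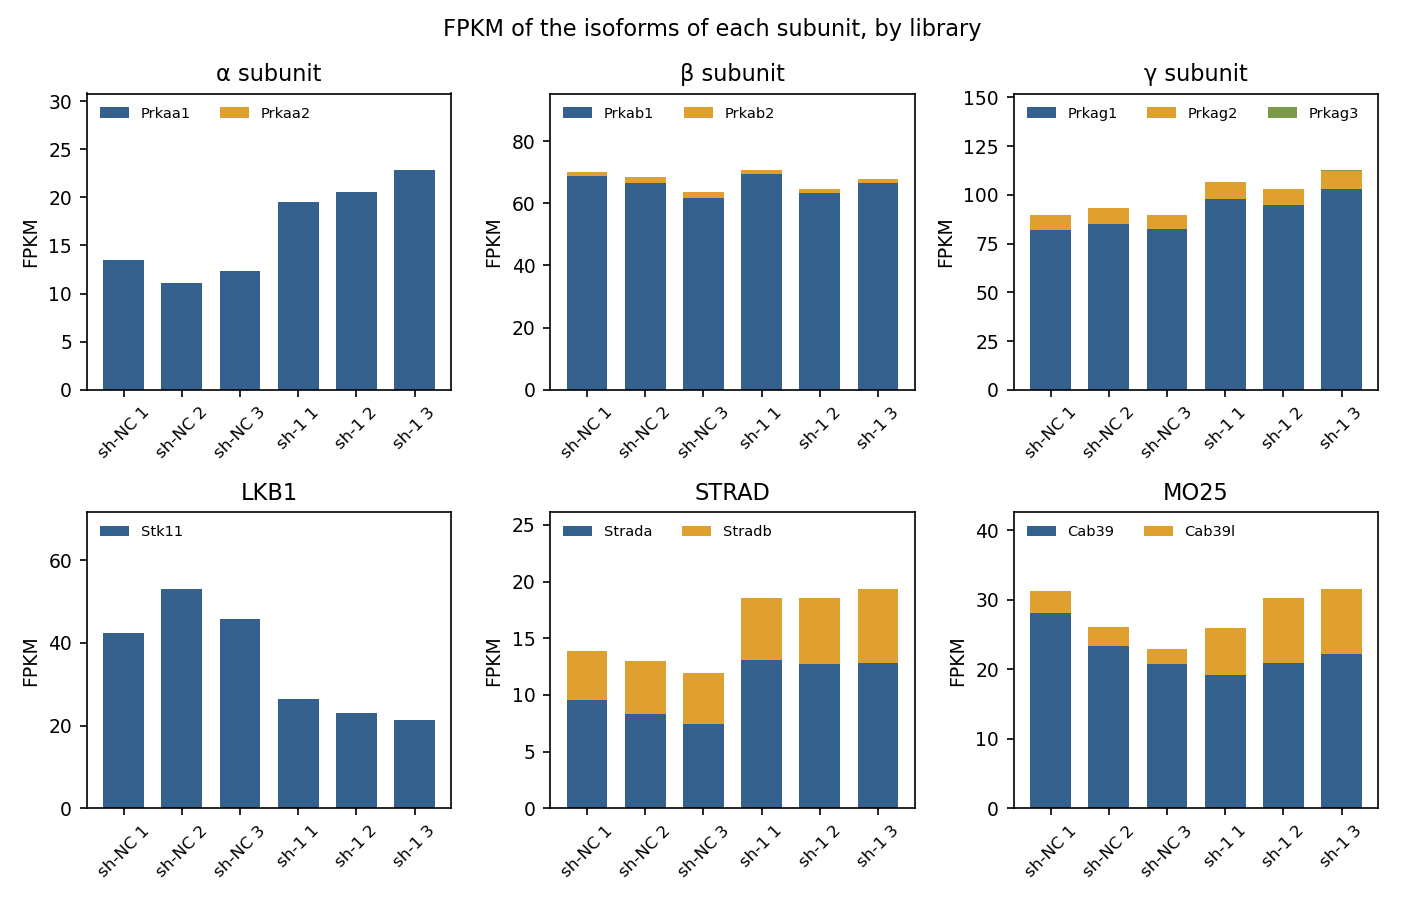
FPKM of each isoform, stacked by subunit (linear axis from 0), in each library. The α, β and γ bars are almost all Prkaa1, Prkab1 and Prkag1; the LKB1 bars are lower in all 3 sh-1 libraries (21.3 to 26.5 FPKM) than in sh-NC (42.3 to 53.1 FPKM), and the Cab39l part of MO25 is larger in sh-1.

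LKB1 also activates a family of kinases related to AMPK, and of these 12 genes 11 were tested, with 3 higher and 5 lower in sh-1, beside 65.5% of all genes called. Their median log2 fold change was -0.52, with 0.00 for all genes tested. Among the MARK kinases, which phosphorylate microtubule-associated proteins and set cell polarity, Mark2 averaged 286 ± 6.45 CPM in sh-NC, against 131 ± 6.11 CPM in sh-1 (log2 fold change -1.13 ± 0.08 SE, adjusted p = 1.15e-07 in edgeR) and Mark4 46.2 ± 3.55 and 23.6 ± 3.65 CPM (-0.97, edgeR adjusted p = 2.42e-05). Mark3 was at 101 CPM in both groups (log2 fold change 0.00, SE 0.08; 0.16 after the correction, edgeR adjusted p = 0.0395), and Mark1, at 0.0488 and 0.0945 CPM, was not tested. All salt-inducible kinases, which hold CRTC coactivators in the cytoplasm, were lower. Sik3 averaged 97.7 ± 1.45 CPM in sh-NC, against 45.8 ± 3.15 CPM in sh-1 (-1.09 ± 0.09 SE, adjusted p = 4.16e-07 in edgeR). Sik2 fell by 0.52 and Sik1 by 0.40 on the log2 scale (edgeR adjusted p = 0.00449 and 0.00152). The NUAK kinases, which act on myosin phosphatase, and Snrk were higher: Nuak1 by 0.60, Nuak2 by 0.26 and Snrk by 0.45 (edgeR adjusted p = 0.0165, 0.016 and 0.00565; 0.75, 0.63 and 0.64 after the correction). Brsk1 and Brsk2, kinases of neurons, had group means of 0.165 to 0.418 CPM and did not pass (log2 fold changes -0.68 and -1.31; -0.08 and -0.94 after the correction). After the correction the 3 rises and 4 of the 5 falls kept their call, with Mark2 at -0.67, Mark4 at -0.35, Sik2 at -0.61 and Sik3 at -0.84, while Sik1 was at -0.05 (edgeR adjusted p = 0.56) and the median of the list was -0.08. Nuak1 lost its call without sh-1 replicate 2 or 3 (edgeR adjusted p = 0.0516 and 0.0628), and Nuak2 without sh-1 replicate 2 or sh-NC replicate 2 (edgeR adjusted p = 0.0619 and 0.0573).

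The other regulators of AMPK were mixed. Of 14 further kinases, phosphatases and ubiquitin enzymes that act on AMPK or LKB1, 12 were tested, 2 were higher and 4 lower, beside 65.5% of all genes called, and their median was 0.00. After the correction 3 were higher and 5 lower, beside 67.6% of all genes called, with the 4 falls but neither rise shared by both fits. Camkk1 and Camkk2, the calcium-dependent kinases that can replace LKB1 as activators of AMPK, did not pass (log2 fold changes -0.20, SE 0.17, and 0.03, SE 0.17; 0.19 and 0.27 after the correction, where the sign of Camkk1 turned). Map3k7, which encodes the kinase TAK1, rose by 0.73, but was at 0.10 after the correction (edgeR adjusted p = 0.38). The other gene called higher, the deacetylase gene Sirt1 (0.75, edgeR adjusted p = 0.0425), was at 0.03 after the correction and lost its call without sh-1 replicate 1 or 3 or sh-NC replicate 2 or 3 (edgeR adjusted p = 0.0679, 0.216, 0.143 and 0.0865), which left 1 higher. Ube2o, which encodes a ubiquitin enzyme that targets the α2 subunit, averaged 101 ± 3.16 CPM in sh-NC, against 44.8 ± 2.85 CPM in sh-1 (-1.17 ± 0.09 SE, adjusted p = 2.33e-07 in edgeR). The phosphatase genes Ppp2cb and Ppm1f fell by 0.75 and 0.57 on the log2 scale, and Ube2o, Ppp2cb and Ppm1f kept their call after the correction (-0.70, -0.44 and -0.31). Of 12 lysosomal and sestrin partners 3 were higher and 3 lower, beside 65.5% of all genes called, with a median of 0.05. The corrected fit gave 5 higher and 4 lower, beside 67.6% of all genes called, with a median of 0.08. Axin1, the scaffold that brings LKB1 to AMPK at the lysosome, had means of 117 ± 7.81 and 61.9 ± 7.87 CPM (-0.91 ± 0.10 SE, adjusted p = 6.90e-06 in edgeR; -0.45 after the correction). The 5 Lamtor genes, which encode the Ragulator anchor of that complex, did not pass, with log2 fold changes between -0.14 and 0.28, while after the correction Lamtor1, Lamtor2 and Lamtor4 were called higher (0.62, 0.69 and 0.42) and Lamtor3 lower (-0.62). The folliculin gene Flcn was at -0.95, and the sestrin genes split, with Sesn2 at -1.72, Sesn3 at 1.14 and Sesn1 at 0.62. All 4 were past the threshold before and after the correction, which put Flcn at -0.57, Sesn2 at -1.16, Sesn3 at 0.40 and Sesn1 at 0.65.

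Genes of AMPK substrates were called in both directions, with 9 higher and 9 lower of 22 tested and a median of 0.07, beside 33.3% higher and 32.2% lower among all genes. After the correction 7 were higher and 9 lower, beside 32.9% higher and 34.7% lower among all genes, with a median of -0.07. Of the 9 called lower in each fit, 7 were the same genes. Acaca, the acetyl-CoA carboxylase of fatty acid synthesis that AMPK inhibits, was higher, at 127 ± 14 CPM in sh-1 and 38.3 ± 4.94 CPM in sh-NC (log2 fold change 1.73 ± 0.11 SE, adjusted p = 9.80e-08 in edgeR). Its mitochondrial counterpart Acacb was low, at 2.07 ± 0.655 and 0.655 ± 0.135 CPM (-1.66, edgeR adjusted p = 0.00239; -1.34 after the correction). Ulk1 was at -1.24, the clock repressor gene Cry1 at -1.76 and Pfkfb3, which encodes an activator of glycolysis, at 1.10 (all past the threshold), and after the correction Acaca, Ulk1, Cry1 and Pfkfb3 stood at 1.53, -0.79, -1.55 and 1.13. Among enzymes of AMP and ADP turnover, 13 of 17 genes were tested, 7 were higher and 3 lower, beside 65.5% of all genes called, and the median was 0.23. The corrected fit gave 8 higher and 2 lower, beside 67.6% of all genes called, with a median of 0.30. The nucleotidase genes Nt5c2 and Nt5e, whose products hydrolyse purine monophosphates inside the cell and AMP outside it, rose from 126 ± 8.20 to 300 ± 14.3 CPM and from 1.30 ± 0.241 to 12.4 ± 1.75 CPM (log2 fold changes 1.25 and 3.24, edgeR adjusted p = 9.56e-08 and 1.17e-07). The adenylate kinase genes Ak3 and Ak6 rose by 0.76 and 0.81 (edgeR adjusted p = 3.38e-06 and 1.12e-05). All 4 kept their call after the correction, at 0.76, 3.05, 0.57 and 1.05.

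**Figure D4:**
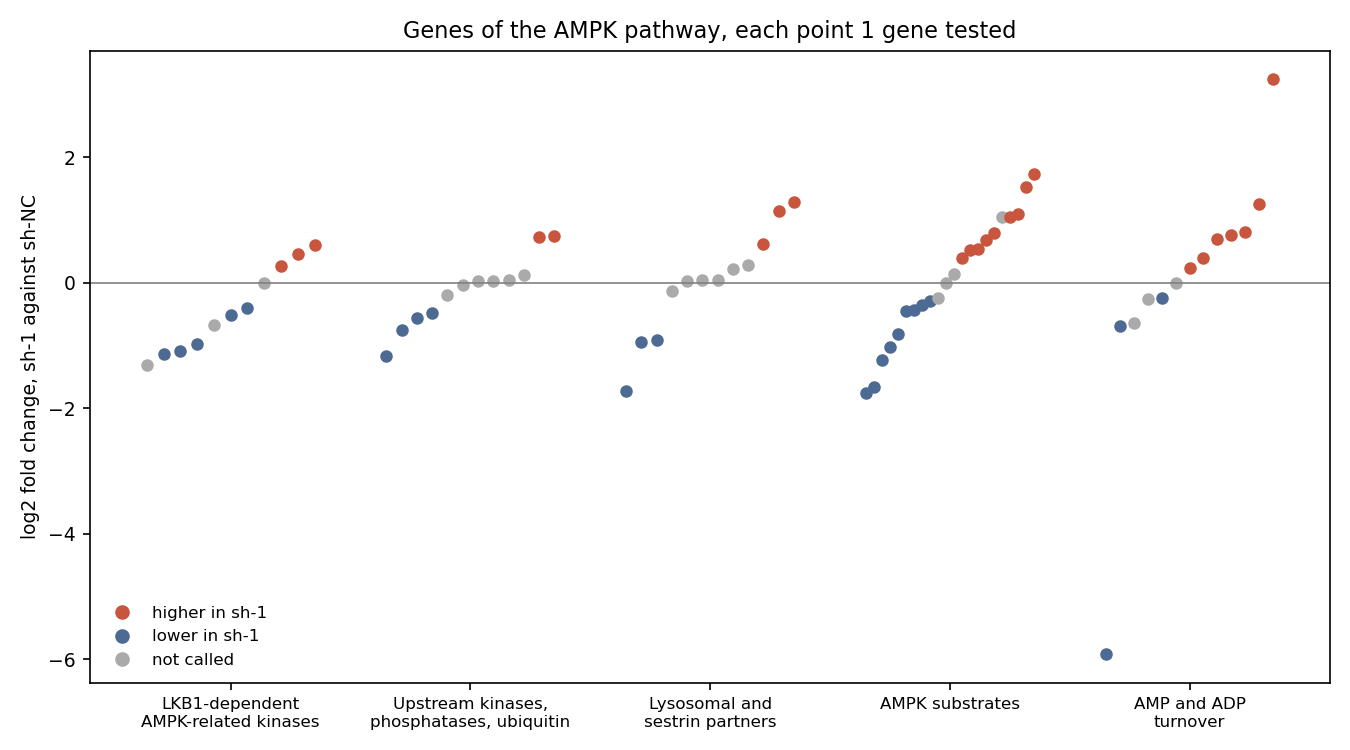
Log2 fold change of sh-1 against sh-NC (y axis) for each tested gene of 5 lists of the AMPK pathway; red points passed as higher, blue as lower and grey did not pass an edgeR adjusted p of 0.05. The AMPK substrates hold 9 red and 9 blue points, and the lowest point is Ampd1.

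To place the members among the other genes, the nearest patterns over the 6 libraries were found as the smallest root mean square distance in centred log2 CPM among 8402 genes. For Stk11 these were Hspb6 (distance 0.041) and Tmem120a (0.045), each with Pearson's r = 1.00 over 6 libraries, and for Prkaa1 they were Enpp4 (0.012) and Eif2s1 (0.022), also with r = 1.00. The nearest genes to Prkab2 encode ribosomal proteins, Rps12 (0.065) and Rps24 (0.073). For Cab39 they were Nop14 (0.040) and Mtmr12 (0.042), for Prkab1 Pigt and Chp1 (both 0.022), for Prkag1 Dok4 (0.032) and Tom1l1 (0.034), and for Prkag2 Oard1 and Exosc7 (both 0.040). The median distance of all candidates was 0.31 to 0.55. With a group difference in most genes and shared libraries and depth, such likeness describes these 6 points only.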

How the data were processed

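Poly(A) RNA of 6 AML12 libraries was sequenced, with bead enrichment by oligo(dT), per the labels' protocols. Tools, per the submitters' processing notes, include HISAT2 and StringTie, and the build is GRCm38. No source used here gives their versions, the strand setting or how reads were assigned. The deposited table holds counts per gene, not normalised, per the file headers. FPKM stand beside them, which the authors scaled by length and depth, as the column names record. The authors' deposited log2 fold changes and adjusted p-values of A against B name no samples, per the file headers, so they enter no test and are only set beside the fit. Their sign was opposite in 19.2% of 11443 tested genes. Rows without an identifier (10 of 26369) were left out.

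Counts were fitted in edgeR 4.0.16 (R 4.3.3) with filterByExpr, TMM and robust quasi-likelihood tests on group, two-sided, adjusted by Benjamini-Hochberg over 13197 genes. SE comes from the F statistic. Shares used FPKM and an exact permutation test. Alternatives used DESeq2 1.42.0 and limma 3.58.1 on log2(FPKM + 1). The GC and length correction modelled, per library, each gene's log2 difference from its mean over libraries with natural splines (5 and 4 degrees of freedom; longest coding transcript, GENCODE M21, 11956 genes) as an offset. edgeR was tested on simulated counts in which few genes changed and no trend along GC content or length was built in. That test does not cover differences as widespread as those here.

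The members, the 6 lists and the tests were chosen with earlier results of these data known. Named genes are the members, Tm9sf1, the partners and LKB1-dependent kinases, the nearest patterns, and up to 4 called genes with the smallest adjusted p of each other list; Prkaa2 has no nearest pattern. Camkk1, Camkk2, the Lamtor genes, Sesn1, Sirt1, Acacb and Ampd1 to Ampd3 were added after their values were seen. Ratios between subunit classes were also added after seeing the data. All 8 members had upstream sequences in the RefSeq table. Replicates differed by more than sampling noise (chi-square per degree of freedom 13.9 to 48.1), and each was kept as its own.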

Additional observations from a re-analysis of the deposited data

How the results depend on the processing

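No member changed its call or direction between TMM and DESeq2 size factors or in the DESeq2 test. The correction for GC content and length was the setting that changed most. It reversed Prkaa1 (-0.37), Prkab1 (0.35), Strada (-0.39), Ppp2ca (-0.71), Ppp2r1a (0.37), Becn1 (-0.46), Gfpt1 (-0.07), Ak1 (0.35) and Aprt (0.22), of which Prkab1, Ppp2ca, Ppp2r1a, Becn1, Ak1 and Aprt had no call before it. It gave 2 members higher, 1 partner higher and 2 lower, and 5 lysosomal partners higher, where the uncorrected fit gave 1, 2, 1 and 3. The ratio of β to α turned to 0.67 and that of LKB1 to MO25 to 0.08, and that of LKB1 to STRAD shrank to -0.19. The shares of Prkab2, Prkag2 and Stradb moved to -2.13, -0.902 and 8.58 percentage points, from -0.822, -0.0694 and -3.33, so the Stradb shift turned over. The cause was not tested. limma on log2(FPKM + 1) called 2 members, 5 lysosomal partners and 1 upstream regulator higher, and scaling by library totals called 2 members and 5 lysosomal partners higher. Prkag1 gained and Cab39 lost its call in both (Cab39 edgeR adjusted p = 0.197 by library totals). Adding 0.1 FPKM moved the Prkaa2 share to -0.319 points, a gene near 0. Leaving out 1 library left the members called higher at 1 to 2, the kinases higher at 1 to 3, the upstream regulators higher at 1 to 2 and the partners lower at 0 to 1, and Stk11 stayed called each time. Numbers 2 and 3 occur in the titles of both groups, but libraries that share one did not deviate together (r = 0.03 and -0.053), so they were not treated as paired. Number 1 occurs only in sh-1 and number 4 only in sh-NC. A block on the title number therefore takes the group difference only from the libraries that share one, with few degrees of freedom left. Whether calls lost in that fit come from the fewer libraries was not tested. With that number as a replicate block, 1 member was called lower, 0 partners lower and 1 upstream regulator higher, Prkab2 and Cab39 having lost their calls (edgeR adjusted p = 0.111 and 0.0542), and 3842 of all genes higher and 3623 lower (4395 and 4253 without it). Of the partners lower, Prkag3 had an adjusted p = 0.156 in edgeR with that block. Sik2, Nuak2, Sesn1, Acacb, Sirt1 and Ampd3 also lost their calls with it (edgeR adjusted p = 0.0763, 0.0513, 0.0506, 0.0633, 0.188 and 0.125). Among the members and listed genes 13 lost their call in that fit. Depth limits Prkaa2, Prkag3, Mark1, Brsk1 and Brsk2, and intervals cover counting error only.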

Other observations

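The deposited counts and FPKM imply a transcript length for each gene and library (counts over FPKM and total counts). It can move with the mix of transcripts behind the FPKM. It can also move with the total that the authors scaled by, which is not given, and the 2 were not told apart. For Prkaa1, Prkab1, Prkab2, Prkag1, Prkag2, Cab39 and Cab39l it varied by 2.30 to 5.04% of its mean over the 6 libraries. Among these, every sh-1 value was slightly above every sh-NC value for Prkaa1, Prkab1, Prkab2, Prkag1 and Cab39. For Strada it was 1.99, 2.03 and 2.08 kb in sh-NC and 2.13, 2.14 and 2.11 kb in sh-1, a range of 7.39%, also higher in sh-1 without overlap. For Stk11 it was 3.00, 2.54 and 2.98 kb in sh-NC and 3.01, 2.84 and 2.77 kb in sh-1, a range of 16.5% with the lowest value in sh-NC replicate 2, the library with the highest Stk11 FPKM (53.1). For Stradb it was 2.73, 2.59 and 2.65 kb in sh-NC and 2.85, 2.70 and 2.32 kb in sh-1, a range of 20.0%. In Stk11 and Stradb the groups overlapped. GENCODE M21 lists 4 coding transcripts of Stk11, from 723 to 2566 bases, and the implied lengths of up to 3.01 kb exceed the longest.

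Ampd1, the AMP deaminase isoform known from skeletal muscle, had 65, 85 and 130 counts in the sh-NC libraries and 0, 0 and 4 counts in sh-1. The other tested AMP deaminase genes were Ampd2, which fell from 93.7 ± 2.90 to 58.0 ± 5.54 CPM, and Ampd3, which rose from 50.8 ± 1.95 to 59.7 ± 2.00 CPM (edgeR adjusted p = 2.94e-05 and 0.0304). Their log2 fold changes of -0.69 and 0.23 stood at -0.21 and 0.30 after the correction (edgeR adjusted p = 0.017 and 0.0017). The call of Ampd3 was lost without sh-1 replicate 2 or 3 or sh-NC replicate 2 or 3 (edgeR adjusted p = 0.0888, 0.0681, 0.0722 and 0.102).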
